A study of Mus musculus with 16 samples.

Results

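The 10 genes described here are the ligand, subunits, inhibitors and targets that stand for the tumor necrosis factor (TNF) and NF-kB pathway in these data. They were taken by name from the gene rows of every library and followed across cell classes and groups, and they are 10 of the 31053 features counted. All 10 were detected and all 10 passed the filter on low counts in the sum of all CD45+ cells and in each of the 5 cell classes that could be tested in both tumors.

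TNF is a cytokine made by myeloid cells, mast cells and activated lymphocytes, and its receptors signal through adaptor proteins to a kinase that marks IkB proteins for degradation. NF-kB dimers held by those IkB proteins then enter the nucleus and switch on target genes. Many targets are themselves inhibitors of the pathway, so that transcripts of inhibitors and of effectors commonly move together.

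The ligand is Tnf (ENSMUSG00000024401). The subunits are Nfkb1 (ENSMUSG00000028163), which encodes p105 and p50, Nfkb2 (ENSMUSG00000025225), which encodes p100 and p52, Rel (ENSMUSG00000020275), which encodes c-Rel, and Rela (ENSMUSG00000024927), which encodes p65. The inhibitors are Nfkbia (ENSMUSG00000021025), which encodes the classical inhibitor IkB-alpha, and Tnfaip3 (ENSMUSG00000019850), which encodes the ubiquitin-editing enzyme A20. Nfkbiz (ENSMUSG00000035356) encodes the nuclear protein IkB-zeta, a cofactor needed for a part of the inflammatory target genes. The remaining targets are Tnfaip2 (ENSMUSG00000021281), a TNF-induced gene of myeloid and endothelial cells, and Icam1 (ENSMUSG00000037405), the adhesion molecule that binds leukocyte integrins.

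Tumors of MC38, a colorectal carcinoma line, or of Panc02-SIY, a pancreatic tumor line carrying the model antigen SIY, were grown under the flank skin of C57BL/6J mice aged 6 to 8 weeks. They were left untreated (NT) or given a single 12 Gy dose of focal radiation (RT), harvested 24 h later, digested with collagenase, enriched for CD45+ leukocytes on beads and sorted as live CD45+ cells. Each of the 4 groups (MC38 NT, MC38 RT, Panc02-SIY NT and Panc02-SIY RT) has 4 libraries of 10x Genomics 3′ single-cell RNA sequencing, taken here as 4 tumors. The series' design text gives 4 animals a group and the study's methods give 3, so p-values measure the spread between libraries. The values are UMI counts, in which copies of the same captured RNA molecule are counted once, and levels are given as CPM, a gene's share of all UMIs of the cells summed, scaled so that libraries of different depth can be set side by side. CPM of different genes are not set against each other.

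Libraries held 3240877 to 43776342 UMIs. The 9843 MC38 barcodes were only 2632 distinct sequences, of which 769 occurred in all 8 MC38 libraries, whereas the 18835 Panc02-SIY barcodes were 18136 distinct sequences. Between 76.0% and 94.0% of the barcodes of an MC38 library also occurred in another library of either tumor, against 2.38% to 8.47% for Panc02-SIY. Each barcode was therefore kept only in the library, among all 16, where it had most UMIs. This left 20756 of 28678 barcodes (1323 MC38 NT, 1302 MC38 RT, 9400 Panc02-SIY NT and 8731 Panc02-SIY RT). MC38 RT replicate 1 was the smallest library after this step, with 147 barcodes and 42.8% of its UMIs kept. Of those barcodes 70 also occurred in another library, with a median of 45.6% of their UMIs in this library. For 362 of 1323 kept MC38 NT and 444 of 1302 MC38 RT barcodes, under 80% of the UMIs lay in the library kept. In Panc02-SIY these counts were 16 of 9400 and 12 of 8731. The library of such a barcode, and so its group, is uncertain. For the MC38 responses to RT over all CD45+ cells and in macrophage-like cells, results with every deposited barcode kept are also given. The same holds for the order of cell classes and for the difference between the radiation responses of the tumors. For most other results on MC38 libraries this is not given gene by gene. Ptprc, which encodes CD45, was present in all 16 libraries at 420.4 to 2091 CPM, and the 4 p53 target genes used to check irradiation were higher after RT in both tumors, from 401 to 505 up to 1595 to 1872 summed CPM in MC38 and from 174 to 201 up to 672 to 937 in Panc02-SIY.

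Cells were clustered without the pathway genes, and clusters were named by marker genes, as macrophage-like and so on. Macrophage-like cells made up 63.2% ± 4.88 (SD, n = 4) of MC38 NT and 60.7% ± 6.56 of MC38 RT cells, but 19.4% ± 9.42 of Panc02-SIY NT and 14.0% ± 6.24 of Panc02-SIY RT cells, where T cell-like cells were the largest class (38.3% ± 3.41 and 31.1% ± 7.69). In Panc02-SIY tumors neutrophil-like cells were 8.38% ± 2.22 of NT and 14.2% ± 3.54 of RT cells, and monocyte-like cells 1.89% ± 1.14 and 6.64% ± 1.42. NK-like cells averaged 8.759% (5.233 to 11.01) of MC38 NT and 13.46% (12.04 to 14.97) of MC38 RT cells, without overlap. In Panc02-SIY they averaged 9.947% (5.507 to 14.57) of NT and 16.22% (11.29 to 19.57) of RT cells, with overlap. The sum of all CD45+ cells took every kept barcode, also of clusters named as tumor or stromal-like and of clusters left unnamed. Tumor or stromal-like barcodes averaged 9.679% of MC38 NT, 5.997% of MC38 RT, 2.896% of Panc02-SIY NT and 1.913% of Panc02-SIY RT libraries. The part of these clusters in the levels and changes of that sum was not tested. A level in the sum of all CD45+ cells holds both the mix of cells and the RNA per cell, and there fewer cells of a type and less RNA per cell cannot be told apart. Macrophage-like, T cell-like, NK-like and neutrophil-like cells each came from several clusters. A level in such a class holds the mix of its clusters as well. The cDC-like class was a single cluster of conventional dendritic cells, with the cDC1 marker Naaa and the cDC2 marker Cd209a among its leading genes. A level there can hold a mix of both types. No MC38 library held 10 neutrophil-like cells, and for lack of MC38 cells that class and the monocyte-like, mature DC-like, B cell-like and mast cell or basophil-like classes were compared only in Panc02-SIY.

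Promoter sequence is shown for 4 of the genes because the pathway's inhibitors and subunits are classical targets of NF-kB itself. Of the 10 genes, 8 had an entry in the RefSeq promoter table (GRCm38.p6, the assembly also called mm10), with 11 start sites. The kappaB consensus decamer was searched on both strands in the 250 bases before each start and was found before 7 of the 11 starts. These belonged to 5 genes, Tnfaip3, Rel, Nfkbia, Tnfaip2 and Nfkb2, whereas Tnf, Icam1 and Rela had no match. It was found before 7.25% of all 32851 starts in the table. The 130 bases before the start are printed for 4 inhibitor and subunit genes, all with a match. They run from 5′ to 3′ on the gene's strand, with the matched bases in capitals. The stretches are Nfkbia at chr12:55492648-55492777 (minus strand), Rel at chr11:23770970-23771099 (minus strand), Tnfaip3 at chr10:19015411-19015540 (minus strand) and Nfkb2 at chr19:46304607-46304736 (plus strand).
Nfkbia: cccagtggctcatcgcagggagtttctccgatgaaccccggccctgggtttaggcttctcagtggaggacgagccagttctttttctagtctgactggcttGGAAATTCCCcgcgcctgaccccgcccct
Rel: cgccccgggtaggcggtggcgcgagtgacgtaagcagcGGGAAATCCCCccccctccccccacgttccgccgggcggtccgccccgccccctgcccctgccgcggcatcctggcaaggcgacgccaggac
Tnfaip3: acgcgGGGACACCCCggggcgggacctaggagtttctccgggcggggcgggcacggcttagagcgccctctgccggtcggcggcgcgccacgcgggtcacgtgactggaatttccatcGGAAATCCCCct
Nfkb2: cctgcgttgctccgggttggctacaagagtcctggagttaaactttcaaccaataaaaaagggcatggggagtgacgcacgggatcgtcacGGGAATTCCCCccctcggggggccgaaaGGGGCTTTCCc
The match of Nfkbia begins 29 bases before its start, and those of Tnfaip3 begin 125 and 12 bases before. In Rel, matches beginning 92 and 91 bases before the start overlap in a single run of capitals, and Nfkb2 has an overlapping pair at 39 and 38 bases and another match at 11. A match describes the letters of the window and is not a measured binding site.

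The ligand was concentrated in few cell classes. In Panc02-SIY tumors Tnf was highest in mast cell or basophil-like cells, with a median of 960.2 CPM (697 to 2930 over 5 libraries), followed by neutrophil-like cells with 440.1 CPM (174 to 526 over 8 libraries). These ranges did not overlap, and neither overlapped the next class, cDC-like cells at 67.1 CPM (43.7 to 119.6). Macrophage-like cells had 55.4 CPM, monocyte-like cells 53.5, T cell-like cells 40.2 and Treg-like cells 34.6, all within each other's ranges, while NK-like cells had 10.0 and B cell-like cells at most 23.7 in any library. With each cell thinned to 1000 UMIs, Tnf was seen in 48.9% (95% exact binomial interval 33.7 to 64.2) of 45 mast cell or basophil-like NT cells and in 17.7% (14.9 to 20.8) of 661 neutrophil-like NT cells, against 0.530% (0.145 to 1.35) of 755 NK-like NT cells, and the intervals cover counting error only. Before thinning the shares were 66.0%, 31.6% and 4.54% at median depths of 6509, 2491 and 5717 UMIs a cell.

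The subunits in Panc02-SIY followed another order, led by mature DC-like cells, which are dendritic cells that express Ccr7 and Fscn1. Rel in these cells reached 1121 CPM (800 to 1394 over 5 libraries), above the range of every other class, of which B cell-like cells came next at 366 CPM (134 to 507). Nfkb2 was likewise at 247 CPM (216 to 303) against 102 CPM (33.4 to 138) in Treg-like cells, and the ranges did not overlap. Nfkb1 was highest in the same cells at 552 CPM (337 to 691), overlapping cDC-like cells at 349.8 CPM, and lowest in neutrophil-like cells at 138 CPM (124 to 159). Rela ranged from 119 CPM in mature DC-like cells through 112 CPM in neutrophil-like cells to 48.3 CPM in macrophage-like and 26.9 CPM in mast cell or basophil-like cells, with neighbouring classes overlapping throughout, and neutrophil-like cells were its highest class with every barcode kept or with cells gated one by one.

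The inhibitors and targets in Panc02-SIY were highest in neutrophil-like and mast cell or basophil-like cells. Tnfaip2 stood at 6144 CPM (4368 to 7032) in neutrophil-like cells, 880.5 CPM (604 to 1259) in monocyte-like cells and 273 CPM (156 to 443) in macrophage-like cells, and these 3 ranges did not overlap. It was at most 26.1 CPM in any library of T cell-like cells, 22.5 CPM in NK-like cells and 23.7 CPM in B cell-like cells. At 1000 UMIs a cell, Tnfaip2 was seen in 92.3% (90.0 to 94.2) of 661 neutrophil-like NT cells against 0.537% (0.324 to 0.838) of 3537 T cell-like NT cells. Nfkbia was 2206 CPM (1758 to 2880) in neutrophil-like cells, above mature DC-like cells at 1006 CPM (693 to 1264) and Treg-like cells at 889.9 CPM (559.6 to 1249). Nfkbiz was 1806 CPM in mast cell or basophil-like and 1437 CPM in neutrophil-like cells, which overlapped, and both were apart from the next class, Treg-like cells at 424 CPM (326 to 527). Icam1 led in neutrophil-like cells at 567 CPM (363 to 661), apart from mature DC-like cells at 247 CPM (162 to 304). A list of 10 immediate early genes that tissue digestion is known to induce summed to 21873 to 26187 CPM in neutrophil-like NT cells. No Panc02-SIY NT library of macrophage-like, cDC-like, T cell-like, Treg-like or NK-like cells exceeded 4636 CPM. The part of digestion in the class order of these genes and of Tnf was not tested. Tnfaip3 had another order, in which lymphocyte and granulocyte classes overlapped. It was 611 CPM in mast cell or basophil-like, 564.5 CPM in T cell-like, 453 in NK-like, 431 in Treg-like and 411 in neutrophil-like cells with overlapping ranges, and 104 CPM (83.2 to 130) in macrophage-like cells.

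**Figure D1:**
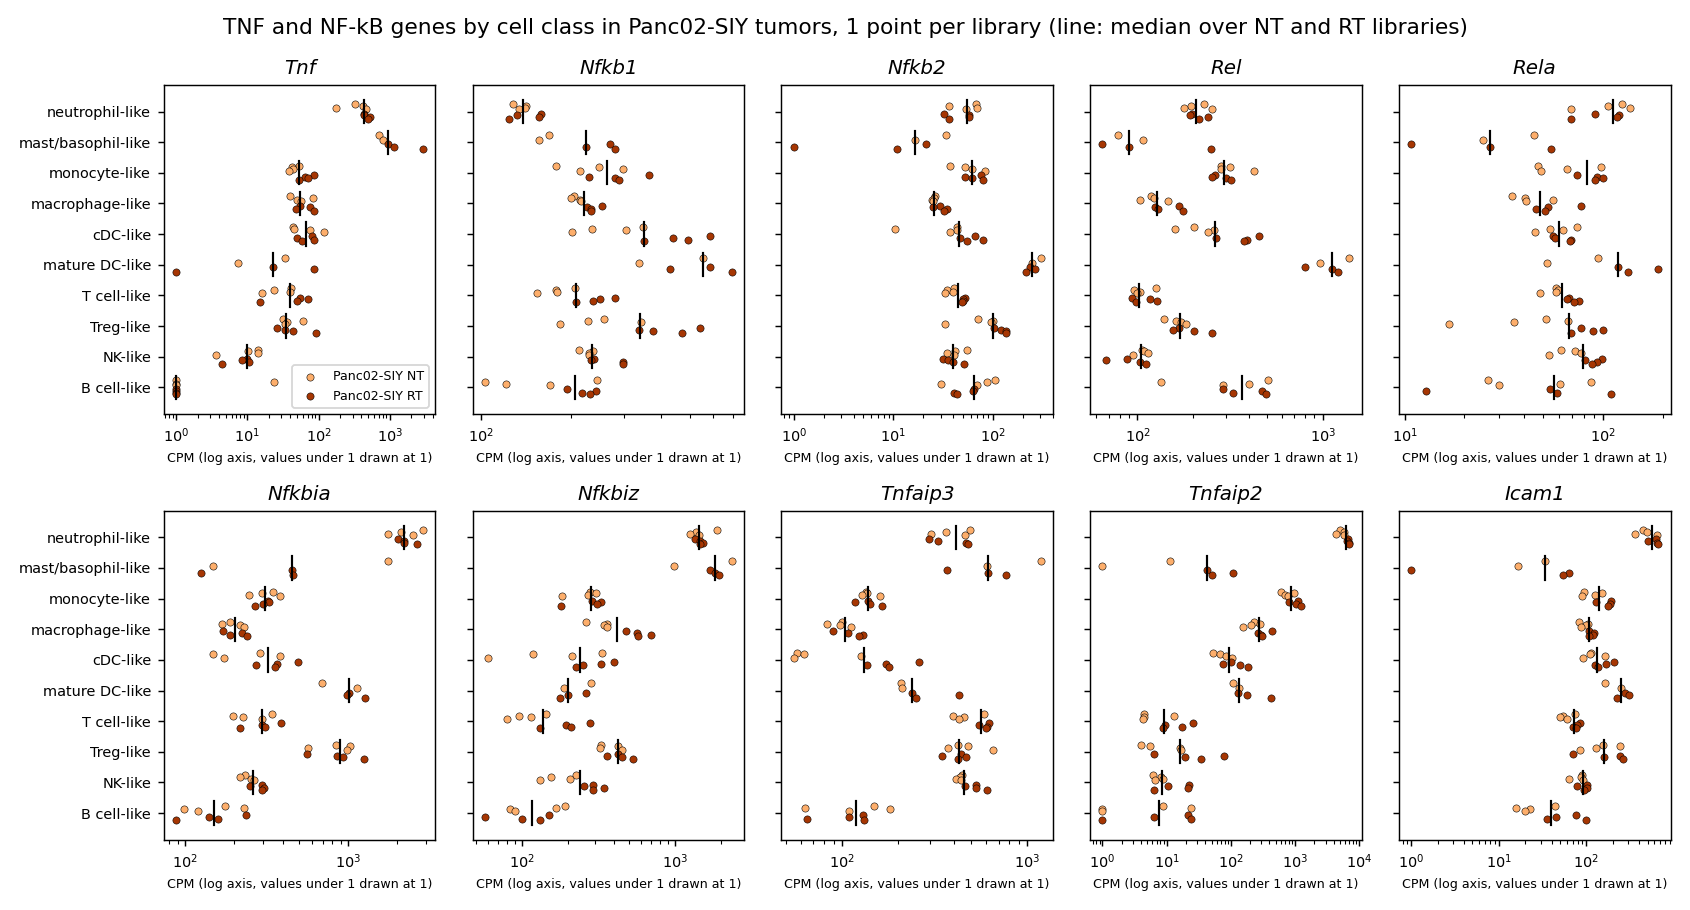
Level of each gene by cell class in Panc02-SIY tumors. The horizontal axis is CPM on a log scale (values under 1 are drawn at 1), each point is 1 library with at least 10 cells of the class, light points are NT and dark points RT, and the black line is the median over both. Tnfaip2 in neutrophil-like cells lies at 4368 to 7032 CPM, and Rel in mature DC-like cells at 800 to 1394 CPM, each apart from the other classes.

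In MC38 tumors the classes that could be ordered were macrophage-like, cDC-like, T cell-like, Treg-like and NK-like cells. Tnfaip3 was again higher in lymphocytes, at 428 CPM (202 to 587) in T cell-like, 347 CPM (278 to 446) in NK-like and 264 CPM (180 to 400) in Treg-like cells, all above macrophage-like cells at 53.4 CPM (42.0 to 83.3). Tnfaip2 was highest in macrophage-like cells at 249 CPM (215 to 421), apart from cDC-like cells at 161 CPM (135 to 214) and from NK-like cells at 11.5 CPM. For the other 8 genes neighbouring classes overlapped, with Treg-like cells highest for Nfkbia, Nfkbiz, Nfkb1, Nfkb2, Rel and Icam1. MC38 lymphocyte classes carried more macrophage transcripts than those of Panc02-SIY: the 10 macrophage markers summed to 657 to 1624 CPM in MC38 NT NK-like cells and to 34.5 to 220 CPM in Panc02-SIY NT NK-like cells. Their part in the MC38 levels was not tested. With every barcode kept, the highest class was unchanged for 6 of 10 genes in MC38 and for 9 of 10 in Panc02-SIY. In MC38, mature DC-like cells then led for Nfkb1, Nfkb2 and Rel, and monocyte-like cells for Tnfaip2. Both classes otherwise had too few MC38 cells to be ordered, and many of their barcodes are then shared between libraries.

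The cells that supplied each transcript differed between the tumors. In MC38 NT, macrophage-like cells held 89.4% ± 3.66 (SD, n = 4) of Tnf UMIs, 92.5% ± 3.41 of Tnfaip2 UMIs and 63.9% ± 9.93 of Tnfaip3 UMIs. These cells also held most UMIs of all genes, 2858943 to 7722505 in libraries of 3422372 to 8495322, so a high share is not particular to a gene. T cell-like cells of Panc02-SIY NT held 3419589 to 18602177 UMIs of all genes in libraries of 6491156 to 43685374. In Panc02-SIY NT, Tnf UMIs were spread over T cell-like (32.0% ± 14.4), neutrophil-like (20.9% ± 7.98), macrophage-like (20.4% ± 16.7) and mast cell or basophil-like cells (11.8% ± 8.67). After RT the shares of Tnf in Panc02-SIY were 30.6% ± 10.9 from neutrophil-like and 20.2% ± 15.6 from mast cell or basophil-like cells, although the latter were 0.671% of cells. Tnfaip2 in Panc02-SIY came chiefly from neutrophil-like cells (66.5% ± 11.9 in NT and 62.8% ± 13.6 in RT), with monocyte-like cells at 9.45% ± 6.50 in NT and 22.1% ± 4.53 in RT. Tnfaip3 came from T cell-like cells (69.5% ± 2.41 in NT and 55.6% ± 7.91 in RT).

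**Figure D2:**
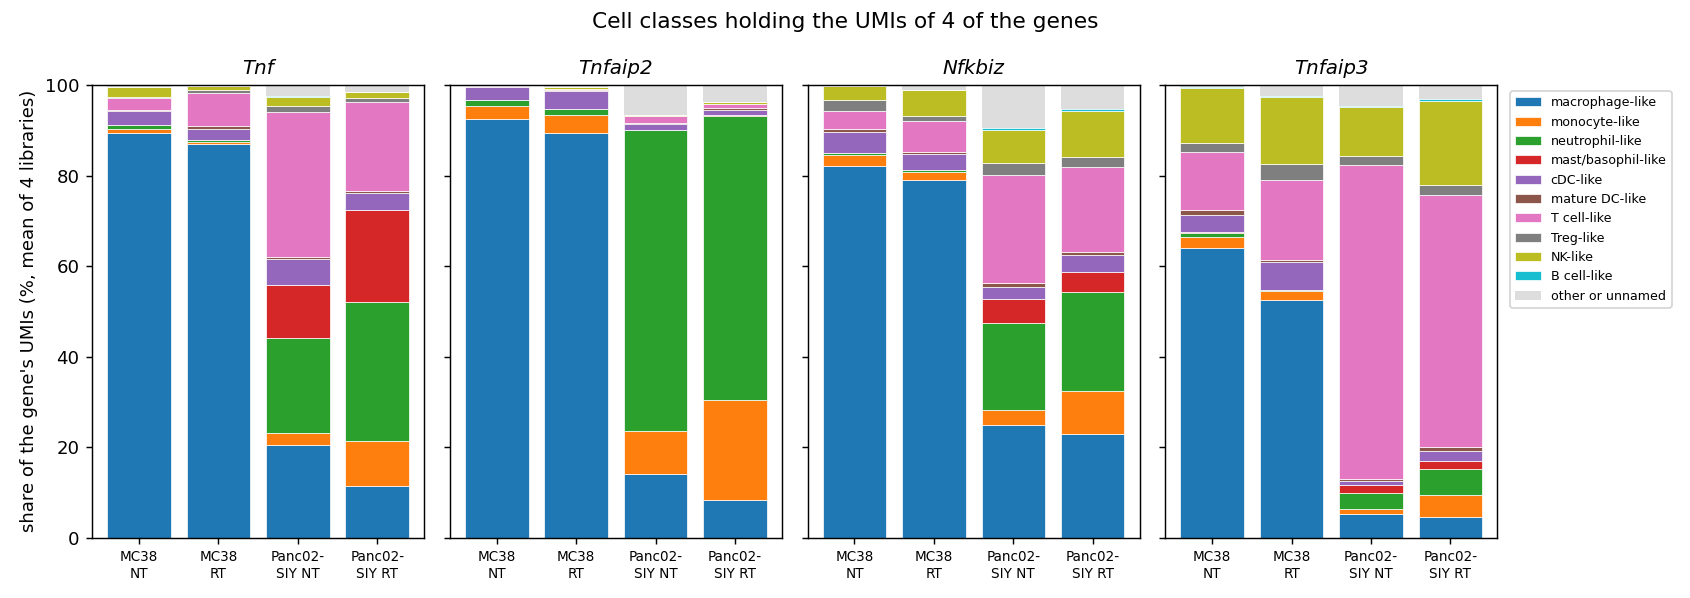
Share of the UMIs of Tnf, Tnfaip2, Nfkbiz and Tnfaip3 (vertical axis, percent, mean of 4 libraries) that lay in each cell class in the 4 groups. Macrophage-like cells fill most of each MC38 bar, whereas neutrophil-like cells hold 66.5% and 62.8% of Tnfaip2 in the Panc02-SIY bars.

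The effect of radiation was asked first over all CD45+ cells of a tumor, with tumor or stromal-like and unnamed clusters in the sum. Tumor or stromal-like cells held 210035 to 6686309 UMIs in Panc02-SIY NT libraries of 6491156 to 43685374. In Panc02-SIY RT they held 200733 to 2303985 UMIs in libraries of 5275195 to 26738456. In Panc02-SIY, 4 of the 10 genes rose after RT, Tnf, Tnfaip2, Nfkbiz and Icam1, and none fell. To be called, a gene needed a fold change above 1.3 and p below 0.1 in edgeR's quasi-likelihood test after Benjamini-Hochberg adjustment over all genes tested. The same limits called 14.7% of the 12446 genes tested in this comparison. The median log2 fold change was 0.34 over the 10 genes and −0.03 over all genes tested. The 10 immediate early genes summed to 3402 to 4645 CPM in the NT and 5085 to 6877 CPM in the RT libraries, without overlap. Of these 10, 4 were called higher, and their part in the result was not tested.

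Tnf in Panc02-SIY was 55.8, 60.1, 44.0 and 37.2 CPM in the NT libraries and 94.0, 86.9, 89.8 and 94.1 CPM in the RT libraries. Every RT library lay above every NT library, and the log2 fold change was 0.82 ± 0.17 (SE; edgeR adjusted p = 0.0058). Tnfaip2 was 277, 286, 175 and 195 CPM in NT and 781, 535, 689 and 458 CPM in RT. Here too the groups did not overlap, and Tnfaip2 had the largest change of the 10 genes in this comparison, a log2 fold change of 1.32 ± 0.20 (adjusted p = 0.00094).

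The IkB-zeta gene Nfkbiz was 299.8, 220, 207 and 207 CPM in Panc02-SIY NT and 404, 358, 411 and 347 CPM in RT, a log2 fold change of 0.63 ± 0.13 (edgeR adjusted p = 0.0048). Icam1 was 98.8, 82.1, 76.4 and 73.7 CPM in NT and 154, 122, 142 and 113 CPM in RT, a log2 fold change of 0.61 ± 0.13 (adjusted p = 0.0058). For both genes all RT libraries were above all NT libraries. The subunits Nfkb1 (0.34 ± 0.10, adjusted p = 0.030) and Rela (0.35 ± 0.08, adjusted p = 0.0085) passed on p but had folds of 1.27, under the limit. Rel, Nfkb2, Nfkbia and Tnfaip3 did not pass, and Tnfaip3 had a log2 difference of 0.07 ± 0.17.

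**Figure D3:**
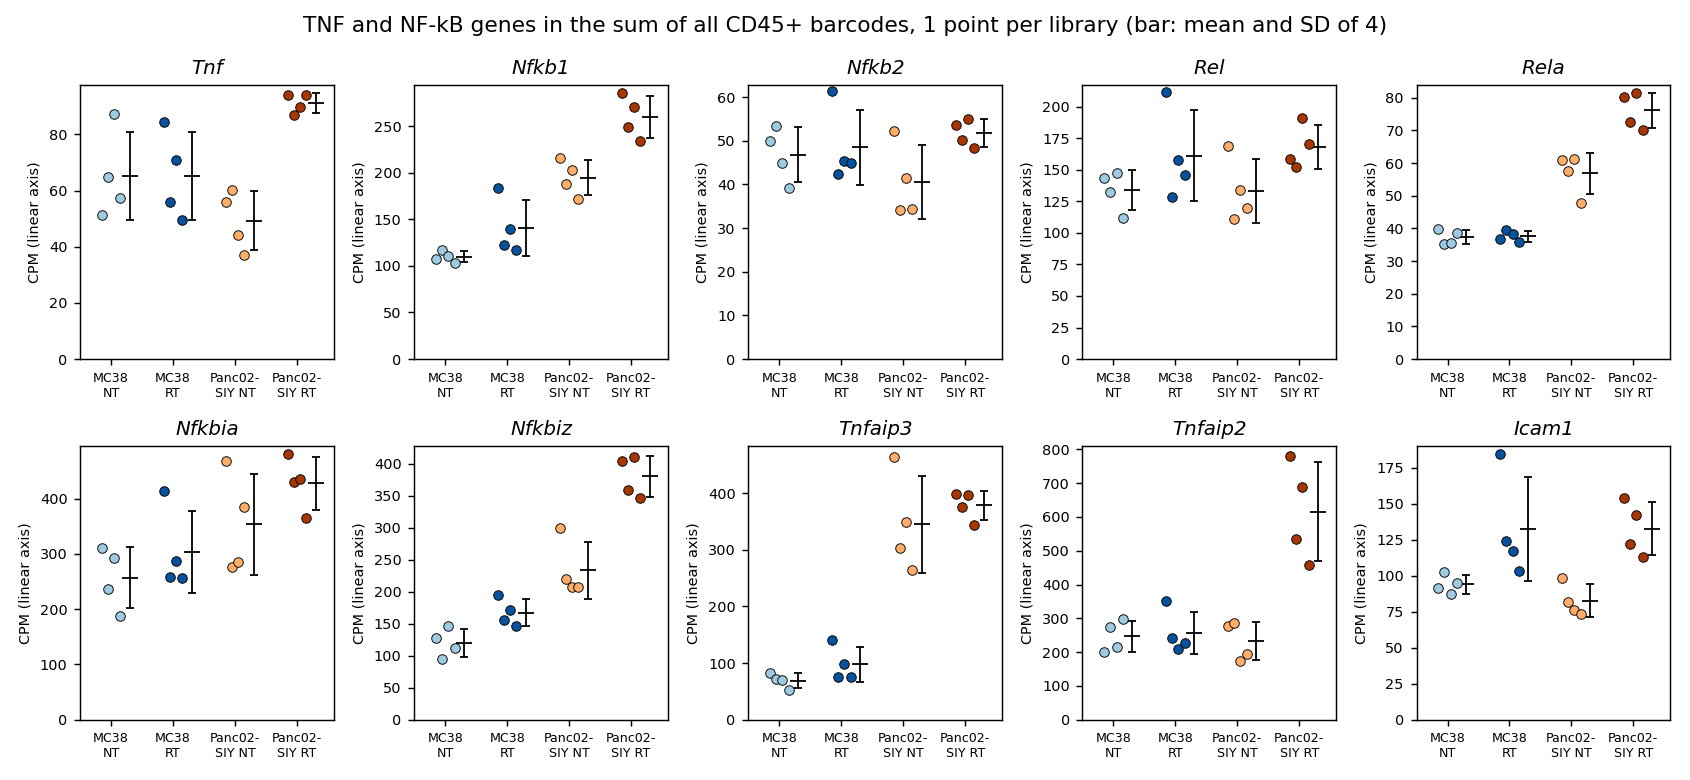
Level of the 10 genes in the sum of all CD45+ cells (vertical axis, CPM, linear from 0), with 1 point for each of 4 libraries in each group and the mean with its SD beside them. The Panc02-SIY RT points of Tnf (86.9 to 94.1 CPM) and Tnfaip2 (458 to 781 CPM) lie above all Panc02-SIY NT points.

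Neutrophil-like and monocyte-like cells, the richest in Tnfaip2, took larger shares of the Panc02-SIY RT libraries. In a fit added after the data were seen, both classes were left out of the sum. The log2 fold change of Tnfaip2 was then 0.84, which did not pass (edgeR adjusted p = 0.157). Tnf (0.72, edgeR adjusted p = 0.047), Nfkbiz (0.72, adjusted p = 0.0057) and Icam1 (0.39, adjusted p = 0.070) still passed. The value of Nfkbiz was larger than over all CD45+ cells, and those of Tnf and Icam1 were smaller. The part of the cell mix in any of these changes was not tested. Within neutrophil-like cells Tnfaip2 was 4993, 5728, 4368 and 5893 CPM in NT and 6639, 6395, 7032 and 6852 CPM in RT. The RT libraries were all higher, and the log2 difference of 0.37 ± 0.14 did not pass (adjusted p = 0.46). Tnf within neutrophil-like cells was 323, 426, 174 and 459 CPM in NT and 442, 438, 526 and 499.9 CPM in RT, overlapping groups with a log2 difference of 0.44 ± 0.22 (adjusted p = 0.67). In mast cell or basophil-like cells Tnf was 697 and 816 CPM in the 2 NT libraries and 960.2, 1150 and 2930 CPM in the 3 RT libraries that held at least 10 such cells, and the difference did not pass (1.18 ± 0.49 on the log2 scale, adjusted p = 0.81). With edgeR none of the genes tested passed in the neutrophil-like, monocyte-like, mature DC-like, B cell-like or mast cell or basophil-like classes, in which 10, 10, 10, 8 and 9 of the 10 could be tested and the same limits called 0.0866%, 0%, 0.0574%, 0% and 0.0216% of all genes tested. An unadjusted p below 0.05 was reached by 1, 4, 2, 0 and 2 of those tested, and DESeq2 called none of them. Over all genes that limit was reached by 632 of 8086, 574 of 8878, 248 of 5223, 372 of 4724 and 271 of 4640.

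Among the 5 classes tested in both tumors, 4 of 50 pairs of gene and class rose in Panc02-SIY after RT and none fell, 8% against 3.48% of all gene and class pairs tested. Nfkbiz rose in macrophage-like cells, from 262, 361, 345 and 360.2 CPM in NT to 480.2, 567, 698 and 568 CPM in RT. No RT library overlapped an NT library, and the log2 fold change was 0.79 ± 0.14 (edgeR adjusted p = 0.0013), in a class where 7.8% of genes were called. This call held under all 29 alternatives of processing, with log2 fold changes of 0.61 to 0.85. Among them, leaving out an MC38 library changed no Panc02-SIY count, and an adjusted p below 0.05 was met by the main fit. The 7 neutrophil markers summed to 96.7 to 180 CPM in the NT and 125 to 277 CPM in the RT macrophage-like sums. The immediate early genes summed to 2014 to 4544 and 3468 to 5438 CPM there, with 3 of the 10 called higher. The part of either list in the result was not tested. Nfkbiz also rose in NK-like cells, from 225, 156, 207 and 132 CPM to 290.2, 253, 346 and 293 CPM (log2 fold change 0.67 ± 0.17, adjusted p = 0.033), where 0.925% of genes were called. The NK-like groups did not overlap, but the call was lost when Panc02-SIY NT replicate 2, NT replicate 4 or RT replicate 3 was left out. In NK-like cells the immediate early genes summed to 2580 to 3248 CPM in NT and 3186 to 4427 CPM in RT. Of these genes 9 were tested and 1 was called higher, and their part in the NK-like result was not tested.

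In Panc02-SIY cDC-like cells, the A20 gene Tnfaip3 was 56.8, 62.6, 126 and 54.8 CPM in NT and 260.5, 173, 136 and 180.2 CPM in RT. All RT libraries were above all NT libraries, and the log2 fold change was 1.23 ± 0.26 (edgeR adjusted p = 0.032), in a class where 1.2% of genes were called. The immediate early genes summed to 3435 to 4636 CPM in NT and 4982 to 8505 CPM in RT cDC-like cells, without overlap, and their part was not tested. The subunit gene Nfkb1 was 349.6, 235, 305 and 202 CPM in NT and 582, 439.6, 492 and 350.0 CPM in RT cDC-like cells, with no overlap and a log2 fold change of 0.74 ± 0.18 (adjusted p = 0.072). Both calls were lost when NT replicate 2, NT replicate 4 or RT replicate 1 was left out, and that of Nfkb1 also without RT replicate 2 or 3. Rel (0.72 ± 0.20, adjusted p = 0.113) and Nfkb2 (0.85 ± 0.33, adjusted p = 0.312) had log2 differences of like size that did not pass. In T cell-like and Treg-like cells of Panc02-SIY, where 5.18% and 0.225% of all genes were called, edgeR called none of the 10, and 3 of the 10 in each had an unadjusted p below 0.05. Over all genes that limit was reached by 1826 of 11125 and 381 of 7102.

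In MC38, 4 of the 10 genes rose over all CD45+ cells after RT, Nfkb1, Nfkbiz, Tnfaip3 and Icam1, and none fell, where 11.7% of all genes were called. The median log2 fold change was 0.34 over the 10 genes and 0.04 over all genes tested. The immediate early genes summed to 5921 to 6967 CPM in the NT and 7687 to 8185 CPM in the RT libraries, without overlap and with 2 of the 10 called higher, and their part in the result was not tested. Icam1 was 91.7, 103, 87.4 and 95.1 CPM in NT and 185, 124, 118 and 103 CPM in RT, and the RT libraries all lay above the NT libraries (log2 fold change 0.56 ± 0.13, edgeR adjusted p = 0.017). Nfkbiz was 128, 94.96, 146.4 and 112 CPM in NT and 196, 156, 172 and 146.3 CPM in RT, so that 1 RT library reached into the NT range (0.56 ± 0.13, adjusted p = 0.017). Nfkb1 was 108, 118, 111 and 104 CPM in NT and 184, 123, 139 and 117 CPM in RT, with a log2 fold change of 0.44 ± 0.10 (adjusted p = 0.016). Tnfaip3 was 82.7, 71.9, 69.4 and 51.8 CPM in NT and 140.0, 76.3, 99.0 and 75.5 CPM in RT, overlapping groups (0.58 ± 0.18, adjusted p = 0.056). For Nfkb1 and Tnfaip3 the highest library was RT replicate 1, the one with fewest cells, and both calls were lost without it. That of Tnfaip3 was also lost in 11 other alternatives, among them those without NT replicate 3, NT replicate 4 or RT replicate 3. NK-like cells, which in MC38 held more Tnfaip3 than macrophage-like cells, took a larger share of the MC38 RT libraries. Tnfaip3 was not called within MC38 macrophage-like cells. The part of the cell mix in the MC38 changes over all CD45+ cells was not tested.

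Tnf was not among the MC38 calls. It was 51.4, 64.9, 87.4 and 57.2 CPM in NT and 84.4, 56.1, 71.0 and 49.5 CPM in RT, overlapping groups with a log2 difference of 0.06 and an edgeR adjusted p of 0.894. With every deposited barcode kept, only Nfkbiz of the 4 MC38 calls remained (log2 fold change 0.38, adjusted p = 0.098), and Icam1 (0.35, adjusted p = 0.059) and Nfkb1 (0.27, adjusted p = 0.062) passed on p but not on fold. With shared barcodes kept only where 80% of their UMIs lay in 1 library, none was called, although the log2 differences were 0.80 for Nfkbiz, 0.66 for Icam1, 0.44 for Nfkb1 and 0.79 for Tnfaip3.

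Over classes, 7 of 50 pairs rose in MC38 and none fell, 14% against 3.41% of all gene and class pairs tested. In macrophage-like cells, where 13.1% of genes were called, Nfkbiz was 113, 86.4, 149.6 and 111 CPM in NT and 185, 148, 170.2 and 139 CPM in RT (log2 fold change 0.57 ± 0.14, edgeR adjusted p = 0.0078). Icam1 was 78.6, 96.5, 85.1 and 94.8 CPM in NT and 160.0, 135, 105 and 93.6 CPM in RT (0.54 ± 0.13, adjusted p = 0.0052). For both genes the lowest RT library overlapped the NT libraries. The neutrophil markers summed to 82.2 to 89.3 CPM in the NT and 107 to 144 CPM in the RT sums of these cells, without overlap, and the immediate early genes to 6201 to 7009 and 8102 to 8673 CPM. Their part in the macrophage results was not tested. Nfkb1 was 90.1, 105.6, 98.8 and 96.0 CPM in NT and 162, 110.4, 118 and 106.5 CPM in RT (0.43 ± 0.11, adjusted p = 0.010), without overlap, and this call was lost without RT replicate 1. Rel passed narrowly (0.39 ± 0.14, adjusted p = 0.079) and was lost in 21 of 29 alternatives, and with every barcode kept none of the 4 macrophage calls remained.

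The other 3 MC38 calls were in T cell-like cells, of which a library held 9 to 29. Icam1 was 52.8, 126 and 43.4 CPM in the 3 NT libraries with at least 10 such cells and 304, 160.2, 191 and 140.0 CPM in the RT libraries (log2 fold change 1.38 ± 0.33, edgeR adjusted p = 0.059), where 0.881% of genes were called. Nfkb1 (0.98 ± 0.25, adjusted p = 0.081) and Tnfaip3 (0.93 ± 0.24, adjusted p = 0.074) also rose. For each of these 3 genes the groups did not overlap, and each call was lost without NT replicate 1, NT replicate 4, RT replicate 1 or RT replicate 3, and with a filter on genes and mitochondrial share per cell. The macrophage markers summed to 430.4 to 1178 CPM in the NT and 471 to 1415 CPM in the RT T cell-like sums, and the immediate early genes to 3000 to 3333 and 4137 to 8625 CPM. Their part in the result was not tested. In cDC-like, NK-like and Treg-like cells of MC38, where 0.0306%, 0.199% and 0.155% of all genes were called, edgeR called none of the 10, and 0, 2 and 2 of them had an unadjusted p below 0.05. Over all genes that limit was reached by 528 of 9793, 754 of 10053 and 500 of 7102.

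**Figure D4:**
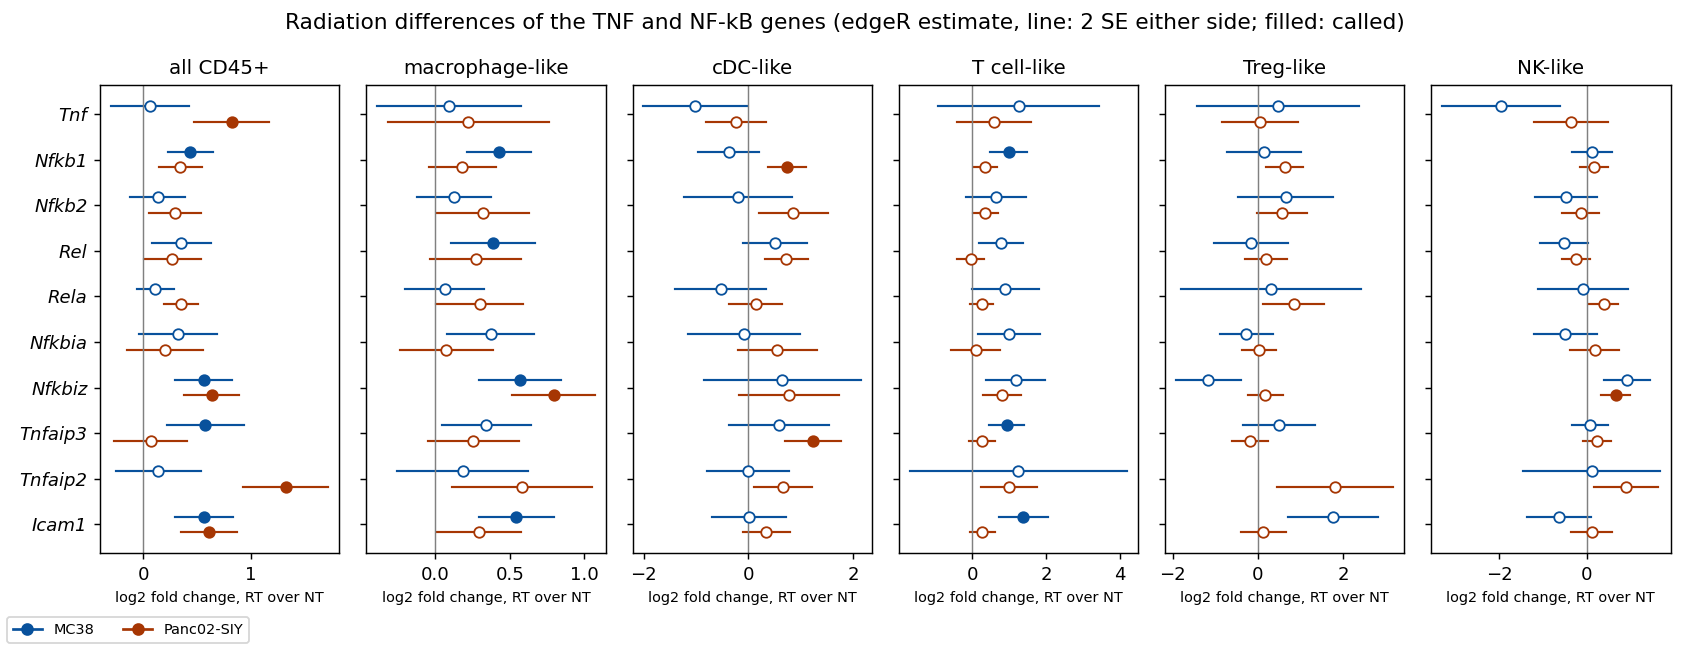
Log2 fold change of RT over NT (horizontal axis) for the 10 genes in all CD45+ cells and in 5 cell classes, as edgeR estimated it, with a line reaching 2 SE to either side. Filled points passed the limits on p and fold, blue is MC38 and brown is Panc02-SIY. Nfkbiz is filled for both tumors in all CD45+ cells (0.56 and 0.63) and in macrophage-like cells (0.57 and 0.79).

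Whether the radiation response of a gene differed between the tumors was tested as an interaction, the MC38 change minus the Panc02-SIY change. None of the 10 genes passed with edgeR over all CD45+ cells, where 0.345% of all genes did. An unadjusted p below 0.05 was reached by 2 of the 10 and by 1467 of all 12446 genes tested. The 2 were Tnfaip2, with a difference of −1.18 ± 0.28 (edgeR adjusted p = 0.113), and Tnf, with −0.76 ± 0.25 (adjusted p = 0.239). DESeq2, run as an alternative, called Tnfaip2 alone (−1.21, adjusted p = 0.0069). Tnfaip2 also passed in edgeR with replicate numbers as a block (−1.22, adjusted p = 0.087), with doublets removed (−1.25, adjusted p = 0.097), with every barcode kept (−1.34, adjusted p = 0.037, where Tnf passed too) and without MC38 RT replicate 1 (−1.33, adjusted p = 0.090), Panc02-SIY RT replicate 2 (adjusted p = 0.080) or Panc02-SIY RT replicate 4 (adjusted p = 0.061). For Nfkbiz the difference was −0.07, with an interval of 2 SE to either side from −0.44 to 0.30, and for Icam1 −0.05 (−0.42 to 0.32). None of the 50 gene and class pairs passed with edgeR or DESeq2, against 0.0439% of all pairs with edgeR (0.133% in macrophage-like, 0.0704% in Treg-like and 0.00899% in T cell-like cells and 0% in the other 2 classes). An unadjusted p below 0.05 was reached by 7 of the 50 pairs. Over all genes it was reached by 991 of 12065 in macrophage-like, 730 of 11125 in T cell-like and 471 of 7102 in Treg-like cells. It was 508 of 9793 in cDC-like and 558 of 10053 in NK-like cells. In macrophage-like cells the difference of Nfkbiz was −0.23 (−0.61 to 0.16).

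Untreated tumors were then set against each other. The tumor and the set of libraries made from it cannot be told apart, and MC38 and Panc02-SIY macrophage-like cells lay in different clusters. Over all CD45+ cells 61.2% of all genes were called between untreated MC38 and Panc02-SIY, so that the 7 of 10 genes called were close to the background. Tnfaip3 had the largest difference of the 10, at 82.7, 71.9, 69.4 and 51.8 CPM in MC38 and 463, 302.5, 349 and 264 CPM in Panc02-SIY, a log2 fold change of −2.12 ± 0.18 (edgeR adjusted p = 6.38e-08). The groups lay far apart, and this sum holds 38.3% T cell-like cells in Panc02-SIY and 4.57% in MC38. Nfkb1, Nfkbiz and Rela were also lower in MC38, and Icam1, Nfkb2 and Tnf were higher by log2 fold changes of 0.39 to 0.62. After RT, 5 of the 10 were called over all CD45+ cells, all lower in MC38, with 58.6% of all genes called. These were Tnfaip3, Nfkbiz, Rela, Nfkb1 and Tnfaip2, of which Tnfaip2 (−0.90 ± 0.20, adjusted p = 0.0012) was higher in MC38 once neutrophil-like and monocyte-like cells were left out of the sums (1.55).

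Within macrophage-like cells 48% of all genes were called between untreated tumors, so that the 4 of 10 genes called were not above the background. Nfkbiz was 113, 86.4, 149.6 and 111 CPM in MC38 against 262, 361, 345 and 360.2 CPM in Panc02-SIY (log2 fold change −1.40 ± 0.14). Nfkb1 was 90.1 to 106 CPM against 199.9 to 217 CPM (−0.95 ± 0.11), and Tnfaip3 was 42.0 to 59.2 CPM against 83.2 to 112 CPM (−0.82 ± 0.15). Nfkb2 went the other way, at 37.5, 49.0, 38.2 and 38.7 CPM in MC38 and 26.2, 25.6, 24.5 and 25.1 CPM in Panc02-SIY (0.83 ± 0.14). For each of these 4 genes the tumors did not overlap, and edgeR's adjusted p was 6.74e-05 or lower.

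Tnf itself was not called between untreated macrophage-like cells, with overlapping values of 57.2, 65.4, 90.5 and 56.8 CPM in MC38 and 39.2, 83.2, 49.7 and 56.1 CPM in Panc02-SIY. T cell markers summed to 318 to 586 CPM in Panc02-SIY NT macrophage-like sums and to 16.8 to 29.2 CPM in MC38. The 10 immediate early genes summed to 6201 to 7009 CPM in MC38 NT and 2014 to 4544 CPM in Panc02-SIY NT macrophage-like cells, and 9 of the 10 were called higher in MC38. The part of either in the differences was not tested.

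After RT 5 of the 10 genes were called between macrophage-like cells, close to the 49.8% of all genes called. The differences were −1.63 ± 0.14 for Nfkbiz, −0.71 ± 0.11 for Nfkb1, −0.73 ± 0.15 for Tnfaip3 and 0.64 ± 0.14 for Nfkb2. The calls of Nfkbiz, Nfkb1 and Tnfaip3 held under all 29 alternatives in both the untreated and the irradiated comparison, and Nfkb2 held in all but the thinned sums. Nfkbia was also called (0.45 ± 0.15, edgeR adjusted p = 0.018), with 349, 203, 225 and 209 CPM in MC38 RT and 172, 224, 188 and 239 CPM in Panc02-SIY RT. That call rested on MC38 RT replicate 1, without which it was lost, as it was without Panc02-SIY RT replicate 1 or 3.

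**Figure D5:**
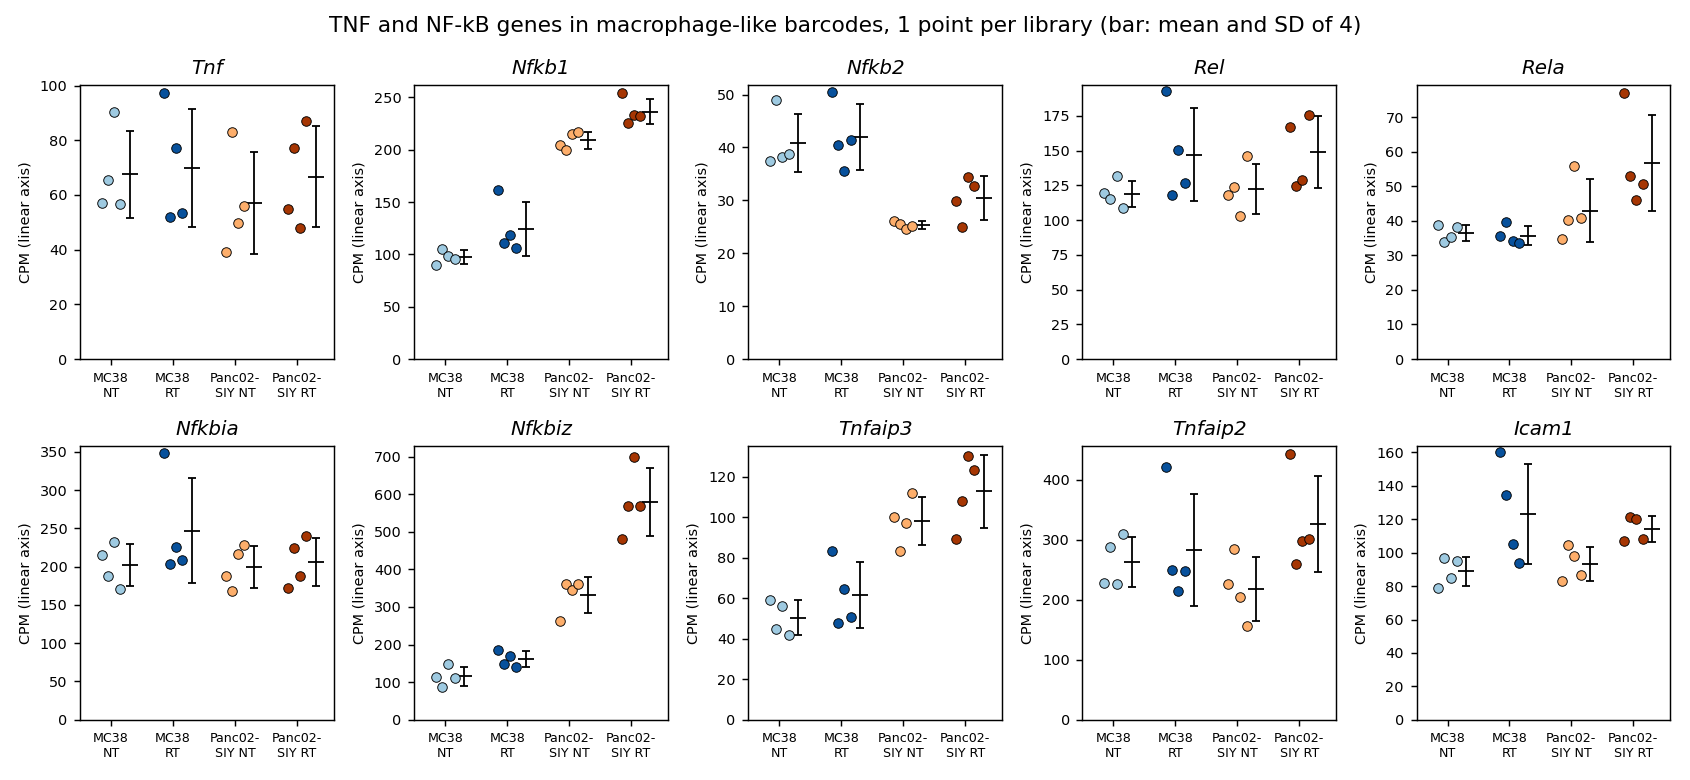
Level of the 10 genes in macrophage-like cells (vertical axis, CPM, linear from 0), with 1 point for each of 4 libraries in each group and the mean with its SD beside them. Nfkbiz lies at 86.4 to 185 CPM in the MC38 libraries and at 262 to 698 CPM in the Panc02-SIY libraries, whereas the Tnf points of all 4 groups overlap.

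In untreated NK-like cells 4 of the 10 genes were called, Icam1, Tnf and Nfkb2 higher and the p65 gene Rela lower in MC38. With a filter on genes and mitochondrial share per cell, the Nfkb2 difference reversed. After RT, Tnfaip3, Rela and Nfkb2 were called in NK-like cells, 1 of them higher and 2 lower in MC38. Rela was not called in T cell-like or Treg-like cells. The NK-like cells lay in different clusters, with 81 of 114 MC38 NT and 130 of 174 MC38 RT cells in a cluster of low UMI count that held 25 of 771 Panc02-SIY NT and 58 of 1331 Panc02-SIY RT cells. In NK-like cells Rela was 26.7, 44.8, 26.2 and 20.8 CPM in MC38 NT against 61.8, 71.9, 77.7 and 53.8 CPM in Panc02-SIY NT (log2 fold change −1.30 ± 0.35, edgeR adjusted p = 0.013), where 9.59% of genes were called. After RT it was 13.8, 20.05, 23.8 and 30.6 CPM against 99.1, 81.4, 93.4 and 87.9 CPM (−1.77 ± 0.32), where 15.8% of genes were called. The groups did not overlap in either comparison, and the RT call held under all 29 alternatives. The MC38 NK-like sums held only 76280 to 192072 UMIs of all genes in NT and 72721 to 327064 in RT. Their Rela levels therefore rest on few UMIs a library. Macrophage markers summed to 657 to 1624 CPM in MC38 NT and 34.5 to 220 CPM in Panc02-SIY NT NK-like cells. After RT these sums were 1061 to 1253 against 102 to 158 CPM, and their part in the NK-like differences was not tested. Tnf in untreated NK-like cells was 21.4, 89.6, 170.4 and 15.6 CPM in MC38 and 3.62 to 14.2 CPM in Panc02-SIY (2.38 ± 0.51, adjusted p = 0.0021), but this difference was −0.25 with a filter on genes and mitochondrial share per cell and −0.28 with cells gated one by one on their markers.

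In T cell-like cells Tnfaip3 was lower in MC38 NT (207, 383 and 202 CPM in 3 libraries) than in Panc02-SIY NT (582, 399, 454 and 429.6 CPM), by a log2 fold change of −0.95 ± 0.22 (edgeR adjusted p = 0.012), where 7.87% of genes were called. After RT, Icam1 (1.27 ± 0.24), Rel (1.08 ± 0.24) and Nfkbia (1.35 ± 0.36) were called higher in MC38 T cell-like cells, where 7.96% of genes were called. The macrophage markers summed to 430 to 1178 CPM in MC38 NT and 87.0 to 186 CPM in Panc02-SIY NT T cell-like cells. After RT these sums were 471 to 1415 against 96.7 to 132 CPM, and their part in the T cell-like differences was not tested. In untreated cDC-like cells, where 7.7% of genes were called, Tnfaip2 alone was called and was higher in MC38 (1.22 ± 0.34, adjusted p = 0.042), and the call was lost without MC38 NT replicate 4. Macrophage markers summed to 521 to 1697 CPM in MC38 NT and 109 to 466 CPM in Panc02-SIY NT cDC-like cells, and to 863 to 1326 against 137 to 309 CPM after RT, and their part in these differences was not tested. In cDC-like cells after RT, Nfkb1 was 143 and 110.2 CPM in the 2 MC38 libraries with enough cells and 582, 439.6, 492 and 350.0 CPM in Panc02-SIY (−1.59 ± 0.25, adjusted p = 0.00037), where 9.63% of genes were called. Tnfaip3 there was −1.45 ± 0.37 (adjusted p = 0.021). Leaving out either of the 2 MC38 libraries left 1, assumed to vary like the other groups, and the call was then lost. In Treg-like cells, where 2.35% of genes were called between untreated and 1.83% between irradiated tumors, edgeR called none of the 10, and 1 and 4 of them had an unadjusted p below 0.05. That limit was reached by 933 and 852 of all 7102 genes tested. DESeq2 called only Nfkbiz in this class, as lower after RT in MC38 (−1.24). Over the 5 classes 10 of 50 pairs were called between untreated and 13 of 50 between irradiated tumors, 20% and 26% against 17% and 19% of all gene and class pairs tested.

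A list of 47 other genes of the pathway was counted beside the 10. Over all CD45+ cells 11 of the 47 rose and none fell after RT in MC38, and 14 rose and 1 fell in Panc02-SIY, where 11.7% and 14.7% of all genes were called. In macrophage-like cells 10 of 47 rose in MC38 and 7 of 47 in Panc02-SIY, and none fell in either, against 13.1% and 7.8% of all genes called. No gene of the list passed the test of a difference between the 2 responses over all CD45+ cells with edgeR, where 0.345% of all genes did.

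Of the target genes on that list, Il1b, which encodes interleukin-1 beta, rose in macrophage-like cells of both tumors. It was 2072, 2459, 2478 and 2050.0 CPM in MC38 NT and 3794, 3434, 3175 and 3230 CPM in RT (log2 fold change 0.69 ± 0.14, edgeR adjusted p = 0.0019). In Panc02-SIY it was 815, 686, 626 and 891 CPM in NT and 973, 1044, 1164 and 1603 CPM in RT (0.69 ± 0.14, adjusted p = 0.0062). The RT libraries lay above all NT libraries in both tumors. Il1b was also a leading gene of a neutrophil-like cluster, and the part of the neutrophil markers given above for these sums was not tested. Ier3, an immediate early gene that restrains cell death, rose in Panc02-SIY macrophage-like cells from 26.2, 49.7, 39.5 and 18.5 CPM to 134, 136, 73.6 and 84.3 CPM (1.66 ± 0.31, adjusted p = 0.0076). Between untreated tumors Ier3 was higher in MC38 macrophage-like cells, at 635 to 856 CPM (4.66 ± 0.31). Macrophage-like clusters that held 544 and 223 of the 854 MC38 NT cells held 7 and 31 of 2231 Panc02-SIY NT cells. After RT the same clusters held 30 and 84 of 1302 Panc02-SIY macrophage-like cells. The part of this shift in the Panc02-SIY rises of Ier3 and Il1b was not tested.

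Of the receptors, kinases and inhibitors on the list, Tnfrsf1b, which encodes TNF receptor 2, rose in macrophage-like cells of MC38 (0.74 ± 0.13, edgeR adjusted p = 0.00053) and of Panc02-SIY (0.49 ± 0.15, adjusted p = 0.063). N4bp1, an inhibitor of NF-kB signaling, rose in the same cells of MC38 (0.64 ± 0.12) and Panc02-SIY (0.57 ± 0.14). Birc3, the ubiquitin ligase cIAP2 of the receptor complex, rose in Panc02-SIY macrophage-like cells (0.52 ± 0.14, adjusted p = 0.030). In cDC-like cells of Panc02-SIY the IkB family member Bcl3 rose, from 15.6 to 57.2 CPM up to 64.0 to 132.8 CPM (adjusted p = 0.038), and the adhesion molecule Vcam1 fell by 3.34 ± 0.71 on the log2 scale (adjusted p = 0.027). In T cell-like cells Traf1, a receptor adaptor, rose in MC38 (1.28 ± 0.25, adjusted p = 0.018), and Tradd, the adaptor of TNF receptor 1, fell by 0.60 ± 0.18 on the log2 scale in Panc02-SIY (adjusted p = 0.070).

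For 4 of the genes the features whose level moved most alike over classes and groups were listed, by Pearson's r of log2(CPM + 10) over 30 means of a class in a group, among 21119 features. Nfkb2 was most like Med11 (r = 0.896), Relb (0.886) and Rab21 (0.88). Tnf was most like Ero1l (0.871), Atp6v0d2 (0.856) and AW011738 (0.83). Nfkbia was most like Fam32a (0.846), Mxd1 (0.834) and Cmip (0.81), and Icam1 was most like Rab11fip1 (0.848), Herc6 (0.834) and Tapbp (0.833). The 30 points share libraries and differ widely in depth.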

How the data were processed

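The authors made the deposited gene by barcode matrices of UMI counts, 1 for each library, from 10x Genomics 3′ libraries (bcl2fastq 2.20.0, Cell Ranger 3.1.0 and mm10, per the submitters' processing notes), and the counts are unnormalized. Barcodes shared between libraries, of the same tumor or not, were kept only in the library with most UMIs (tied barcodes were dropped). Cells were normalized, reduced to 2000 variable genes without the pathway genes and 30 principal components, and clustered by the Leiden method (20 neighbours, resolution 1, scanpy 1.11.5) into 29 clusters. A cluster was named, as X-like, where at least 3 markers of a type were raised by over 1 on the log2 scale (20 CPM added), and names rebuilt in this way may differ from the study's.

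UMI counts were summed over the cells of a class in each library with at least 10 such cells. Sums were tested with edgeR 4.0.16 in R 4.3.3 (TMM factors, robust quasi-likelihood F test, 1 coefficient per group over the 4 groups), for genes with a count of 3 in a class, or of 10 over all CD45+ cells, in enough libraries and a total of at least 15. Benjamini-Hochberg adjustment ran over all genes tested, and SE is the log2 fold change divided by the root of F. Classes without MC38 cells were fitted over the Panc02-SIY libraries alone, a fit added after the data were seen. A class was tested with at least 2 libraries a group, so that MC38 cDC-like and Treg-like cells rest on 2 libraries in each group and MC38 NT T cell-like cells on 3. CPM values are plain shares of a class's UMIs.

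All 10 genes are described in every comparison, and of 47 other pathway genes up to 8 a comparison were eligible to be named, those called in most classes. The 10 genes and all lists were chosen with earlier results of these data known. Doublets were kept, since Scrublet marked only 69 cells (0.332%). As an alternative the 5% of cells with the highest doublet scores (1038) were removed. Other alternatives for the cells were all barcodes, shared barcodes only at 80% dominance, a cell filter (500 genes or more detected, with mitochondrial UMIs not above 10%) and gating of single cells. For thinned sums, the sum of each library was cut at random to the UMI total of the smallest library. Alternatives for the fits were DESeq2 1.42.0, RLE size factors, no count filter, an adjusted p below 0.05, a replicate block, fits of only the 2 groups compared, and leaving out each library. Thinning of each cell to 1000 UMIs served only the shares of cells in which a gene was seen. The fits were tested on simulated data. Promoter sequences are RefSeq's.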

Additional observations from a re-analysis of the deposited data

Results flagged for a closer look

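In 15 of 250 groups of 4 libraries (6%), 1 library lay so far from the other 3 that the gap passed Dixon's 95% critical value. Chance alone gives about 1 in 20 such groups, or 12.5, and no cause was tested. MC38 RT replicate 1, the library with fewest cells, was the high one in 4 of them. Nfkb2 over all CD45+ cells was 61.3 CPM there against 42.5 to 45.5 CPM in the other 3, Nfkbia in macrophage-like cells was 349 CPM against 203 to 225 CPM, Tnfaip2 in macrophage-like cells was 421 CPM against 215 to 249.8 CPM, and Tnfaip2 in NK-like cells was 55.0 CPM against 5.96 to 12.2 CPM.

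In MC38 RT replicate 2, Tnf in T cell-like cells was 587 CPM against 41.2 to 129.8 CPM, from only 10 cells. In MC38 NT replicate 2, Nfkb2 in macrophage-like cells was 49.0 CPM against 37.5 to 38.7 CPM.

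In Panc02-SIY NT replicate 1, Nfkbiz was high over all CD45+ cells (299.8 CPM against 207 to 219.5 CPM) and low in macrophage-like cells (262 CPM against 345 to 361 CPM). Panc02-SIY NT replicate 2 was the high library for Tnf in B cell-like cells (23.7 CPM, the other 3 at 0), Tnf in Treg-like cells (61.3 CPM against 31.7 to 35.8 CPM) and Tnfaip2 in T cell-like cells (12.8 CPM against 4.35 to 4.51 CPM). Panc02-SIY NT replicate 3 was low for Icam1 in NK-like cells (63.6 CPM against 87.1 to 91.2 CPM) and high for Tnfaip3 in cDC-like cells (126 CPM against 54.8 to 62.6 CPM). Rela in T cell-like cells was 47.9 CPM in Panc02-SIY NT replicate 4 against 57.9 to 59.1 CPM, and Nfkbia in NK-like cells was 248 CPM in Panc02-SIY RT replicate 2 against 296 to 305 CPM.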

How the results depend on the processing

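Of 54 calls of a gene in a comparison and population, recomputed under their alternatives, 1347 of 1538 values kept the call, 186 kept the direction but lost it and 5 reversed. Of 293 results not called, 161 of 7090 values became calls. Among the alternatives, leaving out a library of a group not compared changed no count that was compared. Counts below are of the 10 genes over all CD45+ cells, or of 50 gene and class pairs, and causes were not tested. The share of all genes called under each alternative is not given beside them. A shift in a count is therefore not read as particular to the 10 genes.

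For the response to RT in MC38, the 4 calls over all CD45+ cells became 1 with all barcodes and 0 at 80% dominance, and the 7 class calls became 1 with all barcodes, 2 at 80% dominance, 4 with the cell filter, 3 at adjusted p below 0.05, 3 with only the 2 groups compared, 3 with single cells gated and 0 in thinned sums. The 4 class calls of Panc02-SIY became 9 with DESeq2, 7 with no count filter and 1 in thinned sums. Class calls between untreated tumors went from 10 to 19 with all barcodes, and between irradiated tumors from 13 to 8 in thinned sums. The difference of the responses over all CD45+ cells gained 2 calls with all barcodes (Tnfaip2, −1.34, and Tnf, −0.77), 1 with doublets removed, 1 with DESeq2 and 1 with the replicate block (Tnfaip2, −1.22), and over classes 1 with the cell filter (Nfkbiz in Treg-like cells, −2.07).

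Reversed values were Tnfaip2 between irradiated tumors with neutrophil-like and monocyte-like cells left out, an alternative chosen after seeing the data (1.55), Nfkbia between irradiated macrophage-like cells at 80% dominance (−0.063), and, between untreated NK-like cells, Tnf with the cell filter (−0.25) or single cells gated (−0.28) and Nfkb2 with the cell filter (−0.34).

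Leaving out 1 library gave 2 to 5 calls over all CD45+ cells and 2 to 8 over classes for MC38 RT, both lowest without MC38 RT replicate 1. For Panc02-SIY RT it gave 4 to 8, highest without Panc02-SIY NT replicate 1, and 1 to 6, lowest without Panc02-SIY NT replicate 4. Between untreated tumors it gave 4 to 7, lowest without MC38 NT replicate 2, and 9 to 13. Between irradiated tumors it gave 5 to 6 and 8 to 14, lowest without MC38 RT replicate 1. For the difference of responses it gave 0 to 1 and 0 to 0.

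With replicate numbers as a block the calls over all CD45+ cells and classes were 4 and 7 for MC38 RT, 4 and 6 for Panc02-SIY RT, 7 and 10 between untreated and 5 and 13 between irradiated tumors. Same-numbered libraries correlated at −0.178 to 0.742 in their deviations from group means, so the numbers were not taken to pair them. Of 8 libraries in each comparison, 3, 6, 2 and 2 correlated best with their own number, a hint from the data and not the design.

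Depth limits the smaller classes. MC38 T cell-like cells numbered 9 to 29 a library, and Panc02-SIY mature DC-like and mast cell or basophil-like cells passed the minimum of 10 cells in only 5 of 8 libraries. Intervals on shares cover counting error only.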
